A study of Mus musculus with 6 samples.

Results

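The synaptic vesicle and release machinery examined here was a list of 54 named mouse genes, taken by symbol with earlier results of these data known, among 43346 Ensembl genes measured by RNA-seq in cultured mouse RGCs, the retinal neurons whose axons form the optic nerve. The RGCs formed 3 groups, each with 2 replicates: cells given a control AAV, cells given a Sox11 AAV, and cells given a Sox11 K91A AAV, in which the lysine that accepts SUMO is replaced by alanine. Per the study's methods, the viruses were AAV2 vectors that carried EGFP, either alone or behind Sox11 or Sox11 K91A, and the promoter that drove them is not given in the sources used here. The cells came from C57BL/6 mice of both sexes, were immunopanned with CD90.1 and were grown in all groups with forskolin, BDNF and CNTF, with 250000 cells per well. AAV was added 4 h after plating in a volume of 1.5 μl, and RNA was taken at 72 h. The sources give the age as embryonic day 18 for the RNA-seq and as postnatal day 2 in the general culture protocol. Whether the 2 replicates of a group came from separate animals or cultures is not stated, so that the p-values measure the spread between these libraries, which may be technical.

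A nerve terminal stores transmitter in vesicles, docks and primes some of them at the active zone, fuses them with the plasma membrane when calcium enters, and recovers their membrane by endocytosis. The list covers these steps. Synapsins, synaptophysins, synaptogyrins and SV2 proteins belong to the vesicle itself, synaptotagmins and Doc2 proteins bind membranes in response to calcium or regulate those that do, and the SNARE proteins with their partners carry out fusion. The Rab3, Rim, Munc13, Bassoon, Piccolo, ELKS and liprin proteins bring vesicles to the active zone and prime them, dynamins and their partners retrieve the membrane, and neurexins are presynaptic adhesion molecules. RGCs are glutamatergic projection neurons, and in these cultures they were grown without their targets in the brain.

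The list was expressed in every library. All 54 genes passed the filter on low counts, and 50 of them had at least 100 counts in each of the 6 libraries, with a lowest value of 7 counts. Levels are given as TPM, RSEM's measure of transcript abundance, which is scaled for gene length and allows genes to be set side by side. Fold changes were computed from counts scaled by library size (CPM) with limma-voom, and a gene was called when the adjusted p-value was under 0.05 and the fold change above 1.2. Adjusted p-values were corrected over the 15747 genes tested, are two-sided, and errors are SE on log2 fold changes. Summed over the list, the level was 12097.7 and 9434.4 TPM in the control, 8719.3 and 7318.4 TPM with Sox11, and 7878.2 and 8666.8 TPM with Sox11 K91A. Both control libraries were thus above all 4 others. In bulk RNA, fewer cells of a type and less RNA per cell cannot be told apart.

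The libraries held between 27521981 and 37061718 expected counts. Sox11 itself rose from 56.9 and 73.4 TPM in the control to 2256 and 3631 TPM with Sox11 and to 2889 and 1682 TPM with Sox11 K91A, which is in the direction of the labels, although the counts do not separate viral from native transcripts. Sox11 replicate 2 had the highest Sox11 level. The replicates of the control and of Sox11 differed in ways the groups did not explain. Xist, the noncoding RNA of the inactive X chromosome, was at 400 and 95.9 CPM in the control, 526 and 254 CPM with Sox11, and 506 and 481 CPM with Sox11 K91A, so that control replicate 2 and Sox11 replicate 2 stood lowest, and the Y-linked Eif2s3y was highest in the same pair, at 25.1 and 33.9 CPM against 7.66 to 12.6 CPM elsewhere. Gad1, an enzyme that makes GABA and a marker of amacrine cells, was at 1.83 and 1.58 TPM in these 2 libraries and between 11.6 and 25.5 TPM in the others. The amacrine markers Slc32a1 and Tfap2b were also lowest in these 2 libraries. For Gad2 and Slc6a9 these were not the 2 lowest libraries, but in CPM both genes were lower in replicate 2 of the control and of Sox11. Gad2 was at 50.6 and 23.2 TPM in the control, the latter still above every library given a Sox11 virus. Its lowest level of all 6 libraries was 7.51 TPM, in Sox11 replicate 2. Slc6a9 was at 27.6 and 17.5 CPM in the control and at 6.92 and 3.62 CPM with Sox11. In TPM it was instead higher in Sox11 replicate 2, at 10.6 against 8.09 TPM. The summed TPM of the amacrine markers was 235 and 173 in the control and 181 and 116 with Sox11, also lower in replicate 2. The release machinery followed the split seen in Xist. In CPM, 45 of the 54 genes were lower in control replicate 2 than in control replicate 1, and 44 were lower in Sox11 replicate 2 than in Sox11 replicate 1. The median log2 differences were -0.38 and -0.32 over the list and 0.0 in both groups over all genes tested. The median absolute differences were 0.43 and 0.38 over the list and 0.3 and 0.23 over all genes. Between the Sox11 K91A replicates, 17 of the 54 genes were lower in replicate 2. The share of all genes that was lower in replicate 2 was not computed.

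With Sox11, 18 of the 54 genes were called against control, which is 33.3% of the list, beside 20.1% of all genes tested. Of these, 14, or 25.9% of the list, fell, beside 10.2% of all genes, and 4, or 7.41%, rose, beside 9.96%. The median log2 fold change was -0.44 over the list and 0.009 over all genes, and 39 of the 54 values were negative. With Sox11 K91A, 7 genes were called, 13.0% of the list beside 10.6% of all genes. Of these, 5 fell (9.26%, beside 4.81% of all genes) and 2 rose (3.7%, beside 5.81%). The median was -0.30 over the list and 0.017 over all genes, with 37 negative values. The 7 genes called with Sox11 K91A were Syn2, Syp, Syngr1, Syngr3, Syt13, Unc13b and Dnm3, and each was also called with Sox11 in the same direction. The control libraries were shared by both comparisons. The CPM values of the 2 groups did not overlap for 26 lower and 7 higher genes with Sox11, where this was so for 30.6% and 30.9% of all genes, and for 27 lower and 10 higher genes with Sox11 K91A, where it was so for 30.7% and 31.2%.

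The calls rested on few libraries. Without Sox11 replicate 2, limma-voom called 0 of 16206 genes with Sox11, so that none of the 54 was called, and 15 of them had an unadjusted p under 0.05. Without control replicate 2, it called 0 of 16205 genes with Sox11 K91A, and 28 of the 54 had an unadjusted p under 0.05. Without Sox11 K91A replicate 1, 0 of the 54 were called with Sox11 K91A, 10 had an unadjusted p under 0.05, and 0.116% of all genes were called. Without Sox11 K91A replicate 2, 1 was called, beside 1.92% of all genes. Leaving out control replicate 1 turned the balance of calls, with 12 genes higher and 7 lower with Sox11, beside 11.7% and 11.0% of all genes, and 11 higher and 5 lower with Sox11 K91A, beside 8.68% and 6.83%. Without both libraries lowest in Xist, a comparison added after seeing the data, 4 genes rose and 18 fell with Sox11, where 6.1% and 7.05% of all genes did, and 4 rose and 29 fell with Sox11 K91A, where 11.4% and 14.4% did. With edgeR's quasi-likelihood test, 3 of the 54 rose and 10 fell with Sox11, beside 9.34% and 8.68% of all genes, and 1 rose and 4 fell with Sox11 K91A, beside 5.42% and 3.63%. The rise of Syn3 and the falls of Syt7, Vamp2, Cplx2 and Nsf with Sox11 were not called by edgeR. With DESeq2, 5 rose and 17 fell with Sox11, beside 13.5% and 14.1%, and 3 rose and 14 fell with Sox11 K91A, beside 9.85% and 10.1%.

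**Figure D1:**
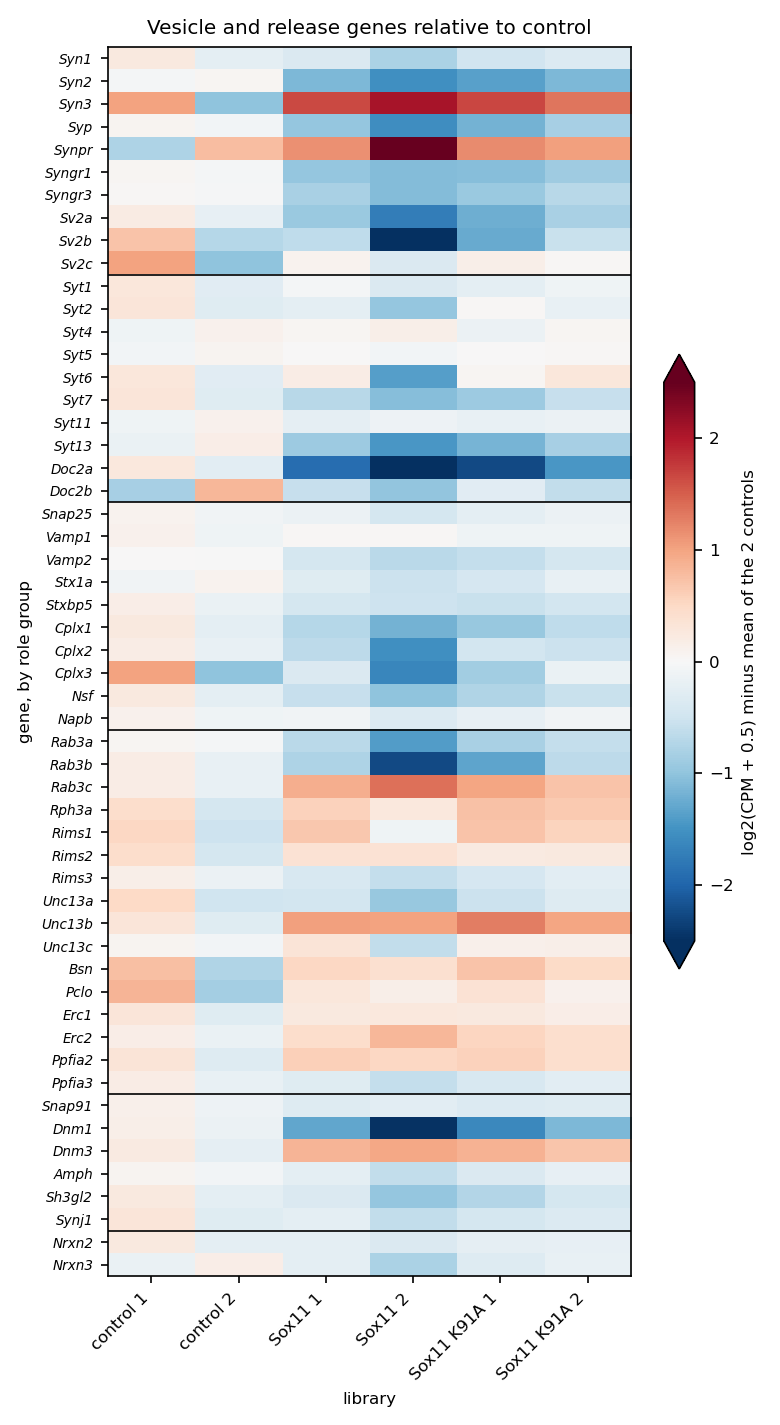
Heat map of the 54 genes by role (rows) in the 6 libraries (columns), with colour giving log2(CPM + 0.5) minus the mean of the 2 control libraries. In the 4 libraries given a Sox11 virus, 26 genes lie below both controls and 7 (Syn3, Synpr, Rab3c, Unc13b, Erc2, Ppfia2 and Dnm3) lie above both. The share of all genes for which this holds in the 4 libraries together was not computed. For Sox11 alone, 30.6% of all genes lie below both controls and 30.9% above, and for Sox11 K91A alone 30.7% and 31.2%. The 2 control libraries differ visibly from each other for Syn3, Sv2c, Bsn and Pclo.

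The start regions of the genes that changed with both viruses are shown because they are the part of these loci where a transcription factor such as Sox11 could be looked for by its letters. Sequences are from RefSeq on GRCm38.p6, the same assembly as the mm10 of the files, and 42 of the 54 genes had an entry. Each is the 250 bases before the RefSeq start, written 5′ to 3′ on the strand of the gene. The gene positions given elsewhere are from GENCODE, which places some starts differently, among the sequences shown those of Syp and Rab3c. The GENCODE start of Syp, 7638471, lies inside its window. The window of Rab3c lies wholly inside the GENCODE gene, which starts at 110280996 on the minus strand. Windows that are not shown but are counted below can differ more. That of Cplx2 ends at 54302555, far before its GENCODE start at 54371349. That of Nrxn3 begins at 88794254, inside the GENCODE gene, which starts at 88722876. The GENCODE start of Sv2a, 96181151, lies inside its window. Capitals mark matches on either strand to a Sox core or to a GC box. The forms searched for the Sox core were ACAAAG and, with another base before the last, the form ACAATG, then with another base at the start the form TCAAAG and, with both of these changes, the form TCAATG. The GC box was searched as GGGCGG, which a Sox core can overlap by no more than its end base. Syngr3 and Syt13 had no entry, and Rab3c, which rose with Sox11, is added.
Syn2, chr6:115134652-115134901, plus strand: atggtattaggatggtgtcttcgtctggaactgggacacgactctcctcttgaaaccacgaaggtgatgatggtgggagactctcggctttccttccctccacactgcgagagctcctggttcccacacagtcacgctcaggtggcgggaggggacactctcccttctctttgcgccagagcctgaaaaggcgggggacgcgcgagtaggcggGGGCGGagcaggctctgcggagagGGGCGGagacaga
Syp, chrX:7638330-7638579, plus strand: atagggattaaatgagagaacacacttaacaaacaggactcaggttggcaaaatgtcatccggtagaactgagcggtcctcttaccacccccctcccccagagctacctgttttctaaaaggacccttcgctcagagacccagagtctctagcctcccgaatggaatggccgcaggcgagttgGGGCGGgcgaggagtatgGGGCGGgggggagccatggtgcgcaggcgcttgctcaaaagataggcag
Syngr1, chr15:80091084-80091333, plus strand: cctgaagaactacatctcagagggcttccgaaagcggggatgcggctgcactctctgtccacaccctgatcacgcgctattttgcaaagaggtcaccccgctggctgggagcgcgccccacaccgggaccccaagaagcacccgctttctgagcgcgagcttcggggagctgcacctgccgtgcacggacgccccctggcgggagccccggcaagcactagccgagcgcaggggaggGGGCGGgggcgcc
Unc13b, chr4:43058703-43058952, plus strand: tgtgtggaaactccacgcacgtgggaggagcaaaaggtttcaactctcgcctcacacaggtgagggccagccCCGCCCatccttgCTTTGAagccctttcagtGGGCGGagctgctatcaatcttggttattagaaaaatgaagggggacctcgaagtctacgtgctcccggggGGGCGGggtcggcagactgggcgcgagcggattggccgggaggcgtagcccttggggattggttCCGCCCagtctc
Dnm3, chr1:162478035-162478284, minus strand: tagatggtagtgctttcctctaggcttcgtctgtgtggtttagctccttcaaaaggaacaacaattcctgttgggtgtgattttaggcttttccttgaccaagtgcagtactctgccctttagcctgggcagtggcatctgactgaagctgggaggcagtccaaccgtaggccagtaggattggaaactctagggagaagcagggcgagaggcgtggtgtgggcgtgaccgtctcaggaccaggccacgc
Rab3c, chr13:110280207-110280456, minus strand: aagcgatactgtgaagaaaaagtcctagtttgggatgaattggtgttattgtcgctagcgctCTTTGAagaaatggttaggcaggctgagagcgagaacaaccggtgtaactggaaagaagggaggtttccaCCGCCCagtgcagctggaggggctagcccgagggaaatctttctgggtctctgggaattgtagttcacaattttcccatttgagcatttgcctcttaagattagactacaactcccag
The letters of a Sox core were present before 11 of the 42 genes, 26.2%, and before 39.4% of all 32851 promoters in the table. A GC box was present before 28 of the 42, 66.7%, and before 32.7% of all promoters, and the median GC content was 61.2% in the 42 and 52.4% in all. Of the 6 sequences above, Unc13b and Rab3c held a Sox core, and Syn2, Syp, Syngr1 and Dnm3 held none within these bases. These 6 do not cover all called genes. Among the genes that fell with Sox11, 9 had an entry and 2 of these, Sv2a and Nsf, held a Sox core. Among those that rose with Sox11, 3 had an entry and 2 held a Sox core. A match is a description of the letters and does not show binding.

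**Figure D2:**
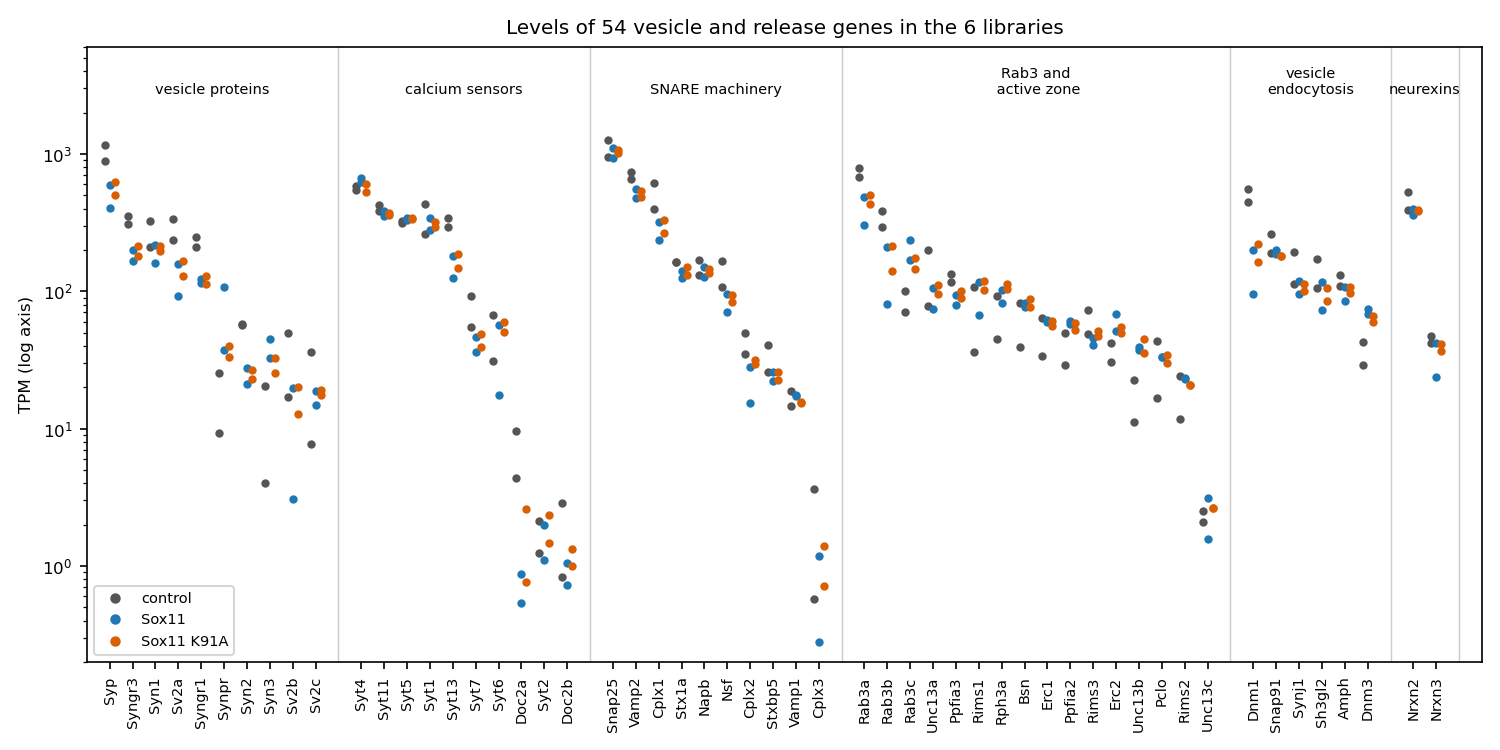
Level of each of the 54 genes as TPM on a log axis, with 1 point per library coloured by group (control, Sox11, Sox11 K91A), and genes ordered within their role by mean level. Mean levels over all libraries run from 1.30 TPM for Doc2b and Cplx3 to 1053 TPM for Snap25, and the points of Syp, Dnm1 and Doc2a separate the controls from the other groups.

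The vesicle proteins held the most calls. With Sox11, 5 of 10 fell and 1 rose, and with Sox11 K91A, 4 fell and none rose by limma-voom, with medians of -0.99 and -0.87. Syp encodes synaptophysin, an abundant membrane protein of synaptic vesicles, and was the most highly expressed of the group with a mean of 695 TPM over all libraries. It measured 1167 and 884 TPM in the control, 590 and 402 TPM with Sox11, and 498 and 629 TPM with Sox11 K91A. All 4 libraries given a Sox11 virus lay below both controls. It fell by 1.26 (SE 0.23, adjusted p = 0.0179) on the log2 scale with Sox11, and by 1.00 (SE 0.23, adjusted p = 0.0416) with Sox11 K91A. The locus, chrX:7638471-7653256, overlaps Gm14703 on the other strand, which held at most 27 counts in any library.

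The synapsins, phosphoproteins that tether vesicles to each other and to actin, did not move together. Syn2 (chr6:115134902-115282006) was at 57.7 and 56.4 TPM in the control, 27.8 and 21.0 TPM with Sox11, and 22.8 and 26.9 TPM with Sox11 K91A. It fell 2.53-fold with Sox11 (log2 -1.34, SE 0.18, adjusted p = 0.0121) and 2.39-fold with Sox11 K91A (log2 -1.26, SE 0.18, adjusted p = 0.0186). Syn3 (chr10:86055125-86498896), which is expressed early in neuronal development, was at 20.3 and 3.99 TPM in the control, 32.5 and 44.7 TPM with Sox11, and 32.5 and 25.3 TPM with Sox11 K91A. It rose 4.1-fold with Sox11 (log2 2.04, SE 0.54, adjusted p = 0.0419), and the difference of 1.68 (SE 0.55, adjusted p = 0.0942) with Sox11 K91A was not called. On the log scale the controls differed from each other about as much as from the Sox11 group, and the log2 fold change with Sox11 was 2.98 without control replicate 1 and 0.87, with no call, without control replicate 2. With Sox11 K91A it was 2.62, with a call, without control replicate 1 and 0.51 without control replicate 2. Timp3, which covers 14.1% of its exonic bases on the other strand, was at most at 1.21 TPM. Syn1, the major synapsin here, was at 326 and 211 TPM in the control and between 161 and 216 TPM in the other libraries, with log2 fold changes of -0.58 and -0.41 and no call.

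The synaptogyrins and Sv2a fell as Syp did. Syngr1 (chr15:80091334-80119501), a tetraspan vesicle protein, was at 249 and 209 TPM in the control, 123 and 115 TPM with Sox11, and 113 and 129 TPM with Sox11 K91A. Its log2 fold changes were -1.03 (SE 0.14, adjusted p = 0.0122) and -0.97 (SE 0.14, adjusted p = 0.019), and the groups were far apart relative to their spread. Syngr3 (chr17:24685092-24689955), a relative of Syngr1, was at 354 and 308 TPM in the control, 201 and 166 TPM with Sox11, and 180 and 212 TPM with Sox11 K91A. It fell by 0.95 (SE 0.16, adjusted p = 0.0162) and by 0.81 (SE 0.16, adjusted p = 0.0315). Sv2a, a vesicle glycoprotein and the target of the drug levetiracetam, was at 338 and 235 TPM in the control, 158 and 92.7 TPM with Sox11, and 129 and 167 TPM with Sox11 K91A. It fell by 1.33 (SE 0.29, adjusted p = 0.0269) with Sox11, while the difference of -1.02 (SE 0.30, adjusted p = 0.0712) with Sox11 K91A was not called although the groups did not overlap.

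The other 3 vesicle genes were not called and varied more between replicates. Synpr, synaptoporin, was at 9.27 and 25.5 TPM in the control, 37.5 and 107 TPM with Sox11, and 40.1 and 33.2 TPM with Sox11 K91A, higher in all 4 libraries given a Sox11 virus (log2 1.81 and 1.05, adjusted p = 0.0717 and 0.292). Sv2b was at 49.8 and 17.1 TPM in the control and between 3.06 and 20.2 TPM elsewhere. Sv2c, at a mean of 19.1 TPM the lowest of the group, was at 36.4 and 7.77 TPM in the control and between 14.8 and 19.1 TPM elsewhere. Both overlapped between groups, and the sign of Sv2c differed between the viruses (log2 -0.08 and 0.15).

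Among the calcium sensors and their relatives, 3 of 10 fell with Sox11 and 1 with Sox11 K91A, none rose by limma-voom, and the medians were -0.64 and -0.17. Syt13 (chr2:92915098-92956058), a synaptotagmin that lacks the residues for calcium binding, was at 295 and 342 TPM in the control, 180 and 125 TPM with Sox11, and 147 and 186 TPM with Sox11 K91A. It fell 2.26-fold with Sox11 (log2 -1.18, SE 0.24, adjusted p = 0.0216) and 1.99-fold with Sox11 K91A (log2 -1.0, SE 0.24, adjusted p = 0.0448). It was higher in control replicate 2 than in control replicate 1, against the direction of most of the list. Syt7, a slow, high-affinity sensor of asynchronous release, was at 91.8 and 54.8 TPM in the control, 46.4 and 36.4 TPM with Sox11, and 39.2 and 48.7 TPM with Sox11 K91A. It fell by 0.88 (SE 0.25, adjusted p = 0.0474) with Sox11, close to the threshold, and the value of -0.74 (adjusted p = 0.095) with Sox11 K91A was not called.

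Doc2a, a high-affinity calcium sensor of spontaneous and asynchronous release, had the largest fall of the 54 genes and a low level. It was at 9.62 and 4.40 TPM in the control, 0.88 and 0.54 TPM with Sox11, and 0.76 and 2.60 TPM with Sox11 K91A. These rest on 176 and 163 counts in the control, 28 and 7 counts with Sox11, and 22 and 46 counts with Sox11 K91A. It fell 10.9-fold with Sox11 (log2 -3.45, SE 0.74, adjusted p = 0.0249), and the 4.87-fold lower value with Sox11 K91A (log2 -2.28, SE 0.60, adjusted p = 0.0551) missed the threshold. The log2 fold change with Sox11 was -4.50 without Sox11 replicate 1 and -2.28, with no call, without Sox11 replicate 2. The gene shares 40.0% of its longest transcript with Ino80e on the other strand, which was between 52.0 and 66.3 TPM and was not called, and whether the counting used strand is not given in the sources used here. Its close relative Doc2b, at a mean of 1.30 TPM the lowest of the sensors, was at 0.83 and 2.86 TPM in the control and between 0.73 and 1.32 TPM elsewhere, and was not called.

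The synaptotagmins best known as sensors of fast release were not called. Syt1 was at 428 and 262 TPM in the control and between 277 and 342 TPM in the other libraries, inside the range of the controls (log2 -0.21 and -0.18). Syt2 was low, at 2.14 and 1.24 TPM in the control and between 1.10 and 2.34 TPM elsewhere. Syt5 was the steadiest of the sensors, between 316 and 339 TPM in all 6 libraries, with 95% intervals from -0.35 to 0.29 with Sox11 and from -0.30 to 0.34 with Sox11 K91A. Syt4 and Syt11, relatives that lack calcium binding in part of the protein, also changed little. Syt4 was the highest of the sensors with a mean of 593 TPM and ranged from 530 to 672 TPM. Syt11 ranged from 355 to 421 TPM. It was slightly lower than both controls in every library given a Sox11 virus (log2 -0.18 and -0.17), with no call. Syt6 was at 66.9 and 31.1 TPM in the control, 56.7 and 17.6 TPM with Sox11, and 50.2 and 60.0 TPM with Sox11 K91A, low in the same 2 libraries that were low in Xist. The signs of Syt4, Syt5 and Syt6 differed between the viruses, with no call for any of them.

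Of the 10 SNARE genes and their partners, 4 fell with Sox11, none was called with Sox11 K91A by limma-voom although 4 had an unadjusted p under 0.05, and the medians were -0.52 and -0.47. Vamp2, the vesicle SNARE of most synapses, was at 740 and 661 TPM in the control, 553 and 480 TPM with Sox11, and 484 and 534 TPM with Sox11 K91A. The groups did not overlap, and the change was small, a fall of 0.55 (SE 0.15, adjusted p = 0.0451) with Sox11 and a value of -0.52 (SE 0.15, adjusted p = 0.0701) with Sox11 K91A. The Vamp2 call with Sox11 was close to the threshold and was not made by edgeR. The complexins, small proteins that bind the assembled SNARE complex and clamp or promote fusion, fell as a pair with Sox11. Cplx1 was at 613 and 396 TPM in the control, 319 and 235 TPM with Sox11, and 266 and 329 TPM with Sox11 K91A, and it fell by 0.95 (SE 0.24, adjusted p = 0.0368) with Sox11. Cplx2 was at 49.4 and 34.9 TPM in the control, 28.0 and 15.3 TPM with Sox11, and 31.6 and 29.5 TPM with Sox11 K91A, and it fell by 1.11 (SE 0.29, adjusted p = 0.0391) with Sox11. With Sox11 K91A the values were -0.79 (adjusted p = 0.0781) for Cplx1 and -0.50 (adjusted p = 0.283) for Cplx2. The third complexin, Cplx3, is known from amacrine cells and photoreceptors, and was at 3.63 and 0.57 TPM in the control and between 0.28 and 1.40 TPM elsewhere.

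Nsf, the ATPase that takes SNARE complexes apart after fusion, was at 165 and 108 TPM in the control, 95.8 and 70.7 TPM with Sox11, and 83.4 and 94.2 TPM with Sox11 K91A. It fell by 0.80 (SE 0.22, adjusted p = 0.0453) with Sox11, and the value with Sox11 K91A was -0.66 (adjusted p = 0.0971). The plasma membrane SNAREs showed less. Snap25, the most highly expressed gene of the list with a mean of 1053 TPM, was at 1252 and 947 TPM in the control, 1109 and 930 TPM with Sox11, and 1017 and 1063 TPM with Sox11 K91A. Its TPM values overlapped between groups. In CPM it was lower than both controls in every library given a Sox11 virus, with no call (log2 -0.30 and -0.20). Stx1a, syntaxin-1A, was at 162 TPM in both controls and between 125 and 151 TPM elsewhere (log2 -0.42 and -0.30, adjusted p = 0.0997 and 0.248). Stxbp5, tomosyn, which holds syntaxin in an inactive complex, had values of -0.48 and -0.51 with no call. Vamp1 ranged from 14.6 to 18.7 TPM and Napb, a cofactor of Nsf, from 126 to 170 TPM, and both overlapped between groups.

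The Rab3 and active zone group moved less and in both directions. Of 16 genes, 2 rose and 1 fell with Sox11, 1 rose with Sox11 K91A, and the medians were positive, 0.27 and 0.24. Rab3a, the main Rab GTPase of synaptic vesicles and the highest of the group with a mean of 533 TPM, was at 792 and 679 TPM in the control, 489 and 302 TPM with Sox11, and 432 and 502 TPM with Sox11 K91A. It fell 2.05-fold with Sox11 (log2 -1.04, SE 0.25, adjusted p = 0.0318), and the value of -0.71 (adjusted p = 0.11) with Sox11 K91A was not called. Its paralog Rab3c ran the other way. Rab3c was at 101 and 70.8 TPM in the control, 168 and 235 TPM with Sox11, and 174 and 144 TPM with Sox11 K91A. It rose 2.2-fold with Sox11 (log2 1.13, SE 0.22, adjusted p = 0.0197), and the 1.8-fold difference with Sox11 K91A (log2 0.85, SE 0.22, adjusted p = 0.0533) missed the threshold. Rab3b was at 384 and 294 TPM in the control and between 81.2 and 214 TPM elsewhere, with no overlap and no call (log2 -1.53 and -0.99, adjusted p = 0.0603 and 0.203).

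The Munc13 proteins, encoded by the Unc13 genes, prime docked vesicles for fusion. Unc13b (chr4:43058953-43264871) was at 22.4 and 11.1 TPM in the control, 39.5 and 37.5 TPM with Sox11, and 44.9 and 35.6 TPM with Sox11 K91A. It rose 2.06-fold with Sox11 (log2 1.04, SE 0.22, adjusted p = 0.0227) and 2.23-fold with Sox11 K91A (log2 1.16, SE 0.22, adjusted p = 0.0266). Unc13a, the main form here, was at 199 and 78.1 TPM in the control and between 73.8 and 111 TPM elsewhere, and overlapped between groups. Unc13c, the lowest of the group with a mean of 2.43 TPM, ranged from 1.56 to 3.11 TPM, and its sign differed between the viruses (log2 -0.18 and 0.15).

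The scaffolds of the active zone were not called in either comparison. Bsn and Pclo, the large proteins Bassoon and Piccolo, were at 81.7 and 39.3 TPM and at 43.2 and 16.8 TPM in the controls, with the other libraries between 77.1 and 88.4 TPM for Bsn and between 29.8 and 34.2 TPM for Pclo. For these genes the controls differed from each other more than the groups did. Rims1, Rims2 and Erc1 behaved alike, with log2 fold changes between 0.20 and 0.63, all with overlap in TPM or CPM between control and Sox11. Erc2, an ELKS family scaffold, was at 41.9 and 30.6 TPM in the control, 51.7 and 68.1 TPM with Sox11, and 54.5 and 49.4 TPM with Sox11 K91A, higher in all 4 libraries given a Sox11 virus (log2 0.63 and 0.48, adjusted p = 0.0537 and 0.134). Ppfia2, a liprin, was higher in the same 4 libraries (log2 0.56 and 0.49), and Ppfia3, another liprin, was lower in them (log2 -0.45 and -0.33), with no call for either. Rims3 had values of -0.50 and -0.35, and Rph3a, rabphilin, an effector of Rab3a, had values of 0.42 and 0.69, again with no call.

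Of the 6 endocytosis genes, 2 were called with Sox11, and these were the dynamins, the GTPases that sever the necks of forming vesicles. Dnm1, the main neuronal dynamin, was at 552 and 444 TPM in the control, 198 and 95.8 TPM with Sox11, and 162 and 219 TPM with Sox11 K91A. It fell 3.69-fold with Sox11 (log2 -1.88, SE 0.38, adjusted p = 0.0216), and the 2.59-fold lower value with Sox11 K91A (log2 -1.37, SE 0.38, adjusted p = 0.0639) missed the threshold with no overlap between the groups. The log2 fold change with Sox11 was -2.49 without Sox11 replicate 1 and -1.29 without Sox11 replicate 2, and it was not called without Sox11 replicate 2 or without either control replicate. Dnm3 (chr1:161982453-162478034) ran the other way, at 42.6 and 28.9 TPM in the control, 68.3 and 73.9 TPM with Sox11, and 66.4 and 59.8 TPM with Sox11 K91A. It rose 1.89-fold with Sox11 (log2 0.92, SE 0.18, adjusted p = 0.0216) and 1.73-fold with Sox11 K91A (log2 0.79, SE 0.18, adjusted p = 0.043). The other 4 genes, Amph (amphiphysin), Sh3gl2 (endophilin A1), Synj1 (the lipid phosphatase synaptojanin) and Snap91 (the clathrin adaptor AP180), had negative values between -0.67 and -0.29 in both comparisons and were not called. The neurexins Nrxn2 and Nrxn3, with means of 407 and 38.9 TPM, were not called either, with values of -0.30 and -0.52 with Sox11 and -0.22 and -0.26 with Sox11 K91A.

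**Figure D3:**
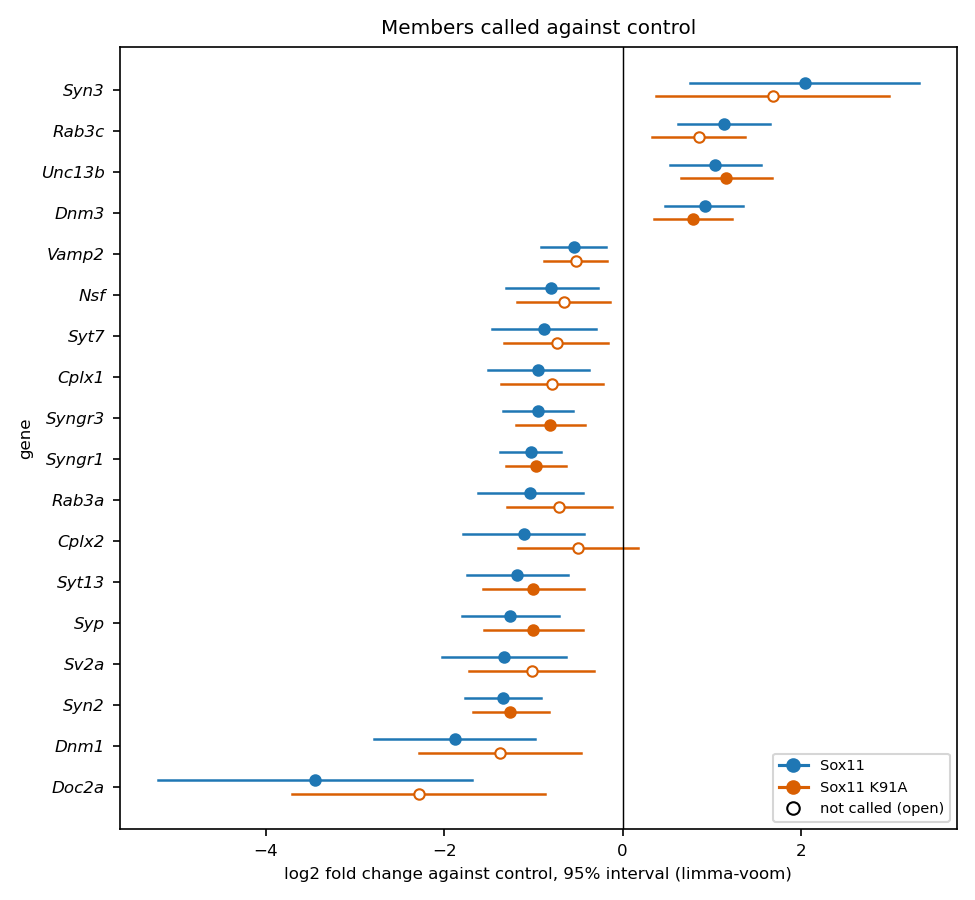
Log2 fold change against control, with 95% intervals, for the 18 genes called with Sox11, shown for Sox11 and for Sox11 K91A, with open circles for values that were not called. Doc2a lies farthest below 0 and Syn3 farthest above it, and the intervals of the 2 viruses overlap for each gene.

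In 4 families, chosen after their values were seen, paralogs did not move together, and their shares of the summed family TPM are given as a description. Syn3 made up 5.04% and 1.47% of synapsin TPM in the control, 11.7% and 19.7% with Sox11, and 12.9% and 9.53% with Sox11 K91A. Rab3c made up 7.92% and 6.78% of the TPM of the 3 Rab3 genes of the list in the control, 19.4% and 38.1% with Sox11, and 23.3% and 16.8% with Sox11 K91A. Unc13b made up 10.0% and 12.2% of Unc13 TPM in the control and between 23.9% and 33.2% in the other libraries. Dnm3 made up 7.17% and 6.11% of the TPM of Dnm1 and Dnm3 in the control, 25.7% and 43.5% with Sox11, and 29.0% and 21.5% with Sox11 K91A. The shares of these 4 paralogs, picked because they rose, were higher in all 4 libraries given a Sox11 virus than in both controls. This did not extend to other minor forms, since Unc13c made up 1.13% and 2.3% of Unc13 TPM in the control and between 1.38% and 2.09% elsewhere, and Syn2 made up 14.3% and 20.8% of synapsin TPM in the control and between 9.06% and 10.1% elsewhere. In the synapsin, Rab3 and dynamin families the summed TPM was lower in Sox11 replicate 2 than in any other library, at 227, 618 and 170 TPM. The summed TPM of the complexins and of the SV2 genes was also lowest in that library, at 250 and 111 TPM. The shares of the complexins changed little, since Cplx1 stayed between 89.2% and 93.8% of their TPM in all 6 libraries.

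**Figure D4:**
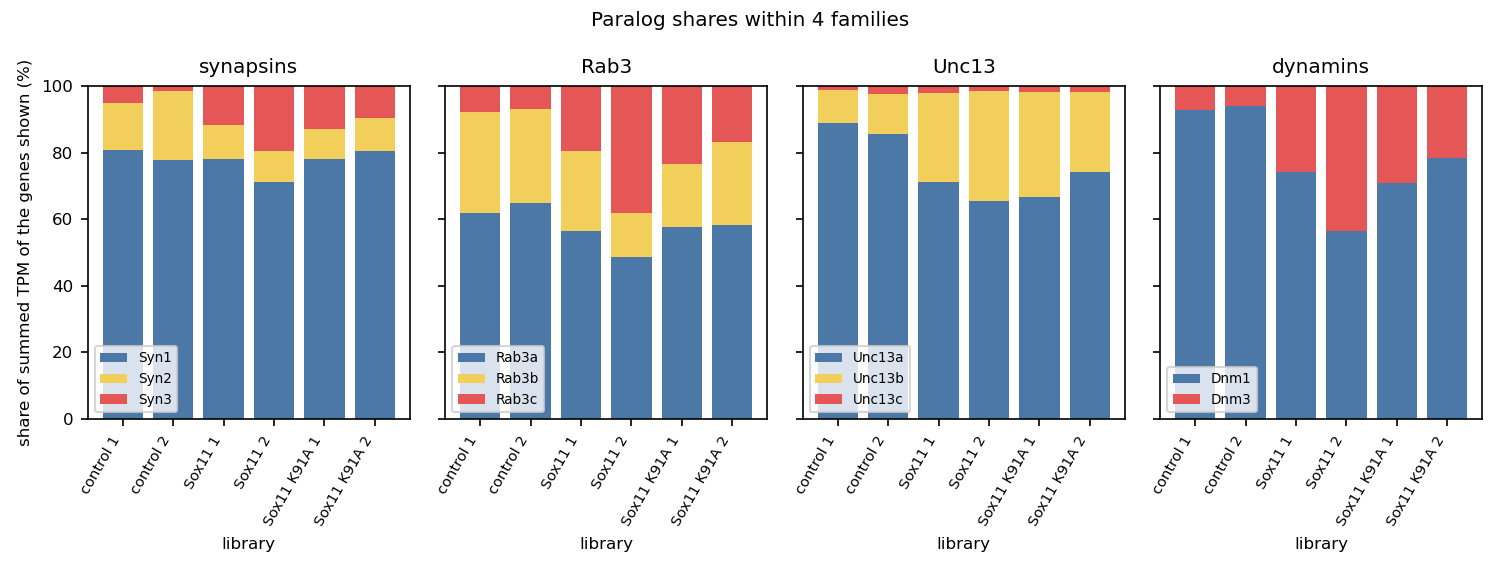
Share of the summed TPM of 4 families (synapsins, Rab3, Unc13 and dynamins) that each paralog held in each of the 6 libraries, as stacked bars from 0 to 100%. The paralogs Syn3, Rab3c, Unc13b and Dnm3 take a larger share in all 4 libraries given a Sox11 virus than in either control.

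Sox11 K91A was compared with Sox11 directly, which asks whether loss of the SUMO site changes the response. None of the 54 genes was called by limma-voom, edgeR or DESeq2, and none had an unadjusted p under 0.05 by any of the 3 tools. The share called among all genes was 0.0% by limma-voom, where 108 of the 15747 genes had an unadjusted p under 0.05, and 0.0127% by DESeq2. The median difference, Sox11 K91A minus Sox11, was 0.13 on the log2 scale, and 0.006 over all genes. It was positive for 42 of the 54 genes, and the median was -0.04 without Sox11 replicate 2. For 36 genes the 95% interval of the direct difference lay within 1 log2 unit, or 2-fold, on either side of 0. The other 18, which include Syn3, Sv2a, Doc2a, Cplx2 and Dnm1, had intervals that reached 2-fold or beyond in at least 1 direction. The interval of Sv2a, -0.38 to 1.0 after rounding, ended at 2-fold.

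Among the called genes, Vamp2, Syngr1 and Syn2 differed least between the viruses. The direct difference was 0.06 (95% interval -0.28 to 0.39) for Syngr1, 0.03 (-0.33 to 0.38) for Vamp2 and 0.08 (-0.35 to 0.52) for Syn2. Cplx2 came nearest to a difference among the called genes, at 0.61 (-0.07 to 1.29, adjusted p = 1.0), with both Sox11 K91A libraries above both Sox11 libraries. Dnm1 differed by 0.51 (-0.37 to 1.40), and without Sox11 replicate 2 the value was -0.07. The CPM values of the 2 viruses did not overlap for 5 genes that were higher with Sox11 K91A (Syt2, Syt5, Cplx2, Rph3a and Nrxn2), beside 13.3% of all genes, and for 3 that were lower (Vamp1, Rims2 and Snap91), beside 13.4%.

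Beyond the list, 69 further presynaptic genes were examined, other members of the same families with their partners, of which 67 could be tested. With Sox11, 26.9% of them were called, beside 20.1% of all genes. Of these, 4 rose (5.97%, beside 9.96% of all genes) and 14 fell (20.9%, beside 10.2%). With Sox11 K91A, 11.9% were called, beside 10.6% of all genes. Of these, 2 rose (2.99%, beside 5.81%) and 6 fell (8.96%, beside 4.81%). The largest falls among them were those of a pair of synaptotagmins. Syt17 was at 28.1 and 21.1 TPM in the control, 3.02 and 1.62 TPM with Sox11, and 1.61 and 4.03 TPM with Sox11 K91A, and it fell 11.8-fold (log2 -3.56, SE 0.46, adjusted p = 0.0115) and 9.91-fold (log2 -3.31, SE 0.44, adjusted p = 0.0162). Syt12, a vesicle protein that does not bind calcium, was at 24.6 and 22.3 TPM in the control and between 0.96 and 5.64 TPM elsewhere, and it fell 10.4-fold and 8.10-fold. Prrt2, a SNARE-binding protein mutated in paroxysmal movement disorders, fell from 22.3 and 25.2 TPM to between 3.33 and 11.5 TPM, 4.43-fold and 3.83-fold. Rabac1, a binding partner of Rab GTPases, fell from 837 and 926 TPM to between 396 and 544 TPM, 2.07-fold and 1.85-fold. For each of these 4 genes the groups did not overlap and both viruses were called. Ppfia4 (a liprin), Rab27b and Rab3d (vesicle Rab proteins) and Rims4 fell with Sox11 by 1.71, 1.67, 1.64 and 0.98 on the log2 scale, and with Sox11 K91A their values of -1.19, -1.18, -1.31 and -0.84 were not called.

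Markers of the cell types that an immunopanned retinal culture could hold moved with the groups in part. Among all genes, 9.96% rose and 10.2% fell with Sox11, and 5.81% rose and 4.81% fell with Sox11 K91A. Of 15 RGC markers, 0 rose and 5 fell with Sox11 and 3 fell with Sox11 K91A. Their median log2 fold changes were -0.18 and -0.16. Their summed level, led by Nefl, Sncg, Stmn2 and Gap43, was 16118 and 15724 TPM in the control, 13332 and 10659 TPM with Sox11, and 11990 and 13664 TPM with Sox11 K91A. Rbpms, a pan-RGC marker, was between 202 and 262 TPM in all 6 libraries and was not called, and Slc17a6, the vesicular glutamate transporter of RGCs, fell from 313 and 239 TPM to between 150 and 173 TPM. Of 10 amacrine markers tested, 1 rose and 1 fell with each virus, and their sum was 173 to 235 TPM in the control, 116 to 181 TPM with Sox11, and 165 to 169 TPM with Sox11 K91A, with none of the markers at 0 in every library. The list of Müller glia and astrocyte markers summed to 283 and 289 TPM in the control and to between 494 and 522 TPM in the other libraries, led by Vim and Glul, with Gfap at 0 in every library. Of the 7 tested, 1 rose and 2 fell with Sox11, 1 rose and 1 fell with Sox11 K91A, and the median log2 fold changes were -2.13 and -0.90, opposite in sign to the change of the sum. Horizontal cell markers summed to between 280 and 558 TPM, a sum led by Tpm3 and then Calb1, Onecut1 and Onecut2. Bipolar markers summed to at most 30.6 TPM, progenitor and cycling markers to at most 17.7 TPM, and pericyte and fibroblast markers to at most 9.31 TPM. Photoreceptor, microglia and endothelial markers summed to at most 5.18 TPM. Vsx1, Rcvrn and Tyrobp were at 0 in every library. The part of these shifts in the changes of the release machinery was not tested.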

How the data were processed

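RNA-seq reads of 6 libraries (control, Sox11 and Sox11 K91A, with 2 replicates each) were aligned by the authors to mm10 with STAR and counted per gene with RSEM. The deposited expected counts are not normalized. The authors also deposited TPM, which is scaled for length and depth. Software versions, the annotation and whether strand was used in counting are not given in the sources used here. Groups were taken from the sample titles. Symbols came from a table of gene names that covered 98.0% of the Ensembl genes, and positions from GENCODE on GRCm38. The 26344 other entries held 1 count in all and were left out.

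Expected counts, which summed to between 27521981 and 37061718 per library, were rounded. After filterByExpr and TMM scaling in edgeR 4.0.16, limma-voom (limma 3.58.1 under R 4.3.3) was fitted once to the 6 libraries, with group as its single factor. A call required an adjusted p-value below 0.05 and a fold change beyond 1.2 in either direction. The quasi-likelihood test of edgeR, DESeq2 1.42.0 and other settings served as alternatives. The code was tested on simulated data. Shared sequence was searched with BLAST+ (version 2.17.0) at 95% identity over at least 100 bases. Figures were made with matplotlib 3.10.9.

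The genes and the lists of further presynaptic genes and of cell type markers were chosen with earlier results of these data known. Every gene of the list was accounted for. Genes called in either comparison with control were given in full, with the highest and lowest of each role group and those whose direction differed between the viruses. Of the further presynaptic genes, the 8 called genes with the largest change were named.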

Additional observations from a re-analysis of the deposited data

How the results depend on the processing

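The direction of the 18 called genes against control was the same under each alternative run, and none of the calls was kept in every fit. Counts of genes of the list that rose with Sox11, 4 as reported, were 2 with sample quality weights (3.35% of all genes rose in the same fit), 2 with limma-trend on log2(TPM + 0.1) (8.17%) and 7 with a block for the 2 libraries lowest in Xist (13.7%). Those that fell with Sox11, 14 as reported, were 3 with quality weights (2.87% of all genes fell), 8 with log2(TPM + 1) (5.92%), 8 with log2(TPM + 0.1) (5.21%), 8 in a fit of the 2 groups alone (5.19%) and 24 with the Xist block (15.2%). With Sox11 K91A, 2 rose as reported, and 1 did so with edgeR (5.42%), 0 with log2(TPM + 1) (3.51%), 0 with log2(TPM + 0.1) (3.68%), 1 in the fit of 2 groups (5.67%) and 4 without the 2 libraries lowest in Xist (11.4%). The 5 that fell became 14 with DESeq2 (10.1%), 3 with log2(TPM + 1) (2.43%), 3 with log2(TPM + 0.1) (2.01%), 9 in the fit of 2 groups (5.6%), 22 with the Xist block (9.96%) and 29 without those 2 libraries (14.4%). The cause of these shifts was not tested.

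Leaving out each replicate in turn gave 0 to 12 higher and 0 to 15 lower genes with Sox11, and 0 to 11 higher and 0 to 9 lower genes with Sox11 K91A. The most higher calls, 12 and 11, came without control replicate 1, where 7 and 5 genes were lower. The median log2 fold change ranged from -0.62 to -0.24 with Sox11, from -0.47 to -0.15 with Sox11 K91A and from -0.04 to 0.29 between the viruses, where 0 genes were called in every fit. The Dnm1 difference between the viruses ranged from -0.07 to 1.12, and it reversed to -0.07 without Sox11 replicate 2 and to -0.07 without the 2 libraries lowest in Xist. Such fits assume that a lone library varies like the other groups.

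The replicate numbers were not shown to pair the libraries of all 3 groups. The deviations of same-numbered libraries from their group means correlated over genes for control with Sox11, at 0.259. The correlation was negative for the pair of viruses, at -0.282, and weak for control with Sox11 K91A, at -0.0448. Exchanging the numbers of the 2 libraries in a group reverses the sign of its correlations. With the replicate block, 5 genes rose and 13 fell with Sox11 (8.27% and 8.74% of all genes), and 2 rose and 5 fell with Sox11 K91A (4.74% and 4.17%). With the Sox11 K91A numbers exchanged in that block, 6 genes rose and 21 fell with Sox11 (12.2% and 13.7%), and 3 rose and 16 fell with Sox11 K91A (8.19% and 9.29%). The Xist block, the fit without those libraries and the exchanged numbers were added after seeing the data. With 2 libraries per group and as few as 7 counts, small changes in Doc2a, Doc2b, Cplx3 and Syt2 could not be resolved at this depth.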
